A study of Mus musculus with 18 samples.

Results

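Genomic imprinting silences 1 parental copy of a gene, so that the RNA comes from the maternal or from the paternal chromosome only. The genes described here are the imprinted genes that lie outside the Dlk1-Dio3 domain of mouse chromosome 12, taken from a list of 35 names and grouped into 19 imprinted clusters. Of these, 33 had a row in the count table of 37224 genes. Gene identifiers were matched to mouse symbols for 32 of them. Snrpn was matched by position, because the row on chromosome 7 from 59982495 to 60140219 (minus strand, mm10) has the same bounds as Snrpn in GENCODE vM21 under another symbol. Kcnq1ot1 and Peg13 were not analysed here. The rule for the list is by gene name and uses no measured value.

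RNA was sequenced from cells made from mouse embryonic stem cells of the C57BL/6 strain, in 6 groups of 3 libraries. The study asks what Hoxb1, an anterior homeodomain factor, does in neuromesodermal progenitors (NMPs), which give rise to spinal cord and paraxial mesoderm, and in neural progenitors (NPs). The NMPs were wildtype or Hoxb1 null. The NPs were not expressing Hoxb1, or were expressing it after DOX (doxycycline). Both kinds of NPs were grown without or with SAG, an agonist of Smoothened that turns on hedgehog signalling. Every Hoxb1-expressing NP library received DOX and no other library did, so Hoxb1 and DOX cannot be told apart. The sources used here do not say which lines or clones were used, or if the 3 libraries of a group came from separate cultures. The p-values then measure only the spread between these libraries, which may be technical. Loss of Hoxb1 in the NMPs likewise cannot be told apart from a difference between lines or clones.

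Imprinted genes sit in clusters that share a control region methylated on 1 parental chromosome. Many of them set fetal growth: paternally expressed genes such as Igf2 promote it, and maternally expressed genes such as Igf2r, Grb10, Cdkn1c and Phlda2 restrain it. H19 and Igf2 use the same enhancers, and the insulator protein CTCF bound to the unmethylated maternal control region keeps them from Igf2. Some clusters act differently in neurons, where Grb10 switches from the maternal to the paternal copy and a downstream promoter. The counts do not separate the parental copies, so each level below is the sum over both.

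Promoter sequence from RefSeq (GRCm38.p6) is shown for a few of the members that the results below turn on, not for all that changed as much, with each CpG, the dinucleotide that carries DNA methylation, in capitals and all other bases in lower case. Each stretch is read 5′ to 3′ on the strand of its gene. Phlda2 is shown at chr7:143502525-143502774 (minus strand), Ndn at chr7:62348027-62348276 (plus), Asb4 at chr6:5383136-5383385 (plus) and Igf2 at chr7:142657497-142657746 (minus).
Phlda2: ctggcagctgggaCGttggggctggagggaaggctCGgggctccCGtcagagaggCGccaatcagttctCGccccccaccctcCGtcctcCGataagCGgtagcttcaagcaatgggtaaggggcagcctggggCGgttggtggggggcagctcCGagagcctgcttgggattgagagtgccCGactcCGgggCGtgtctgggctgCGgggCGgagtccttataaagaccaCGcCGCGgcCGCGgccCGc
Ndn: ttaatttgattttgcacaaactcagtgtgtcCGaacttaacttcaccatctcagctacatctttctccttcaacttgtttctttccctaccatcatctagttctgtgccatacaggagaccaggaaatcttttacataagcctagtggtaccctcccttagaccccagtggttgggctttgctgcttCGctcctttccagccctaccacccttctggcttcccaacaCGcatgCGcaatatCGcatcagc
Asb4: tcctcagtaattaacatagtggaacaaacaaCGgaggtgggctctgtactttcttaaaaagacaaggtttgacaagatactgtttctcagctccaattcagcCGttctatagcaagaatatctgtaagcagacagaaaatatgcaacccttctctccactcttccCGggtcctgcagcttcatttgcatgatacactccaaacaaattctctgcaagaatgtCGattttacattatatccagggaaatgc
Igf2: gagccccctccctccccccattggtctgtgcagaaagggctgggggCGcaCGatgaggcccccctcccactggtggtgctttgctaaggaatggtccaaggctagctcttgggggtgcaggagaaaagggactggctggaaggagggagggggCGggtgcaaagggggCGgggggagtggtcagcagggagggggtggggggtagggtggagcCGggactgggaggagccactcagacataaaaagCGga
The Phlda2 stretch holds 21 CpG dinucleotides, against 5 before Ndn, 4 before Asb4 and 6 before this start of Igf2.

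Grb10 has separate upstream and downstream starts, at chr11:12037421-12037670 and chr11:12027972-12028221 (both minus strand), and they differ in CpG content. Peg3 and Usp29 start back to back, and the interval between their starts, chr7:6730420-6730582, is read here on the minus strand, that of Peg3.
Grb10, upstream start: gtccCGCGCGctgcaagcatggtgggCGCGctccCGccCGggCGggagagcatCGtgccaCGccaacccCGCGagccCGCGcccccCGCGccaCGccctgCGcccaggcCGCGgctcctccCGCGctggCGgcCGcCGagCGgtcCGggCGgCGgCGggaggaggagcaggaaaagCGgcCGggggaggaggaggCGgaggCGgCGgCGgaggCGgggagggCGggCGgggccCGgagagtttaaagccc
Grb10, downstream start: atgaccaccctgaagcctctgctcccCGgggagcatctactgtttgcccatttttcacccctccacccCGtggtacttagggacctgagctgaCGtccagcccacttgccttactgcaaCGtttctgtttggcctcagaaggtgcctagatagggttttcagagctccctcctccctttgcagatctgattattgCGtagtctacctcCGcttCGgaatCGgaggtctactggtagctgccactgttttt
Peg3 and Usp29: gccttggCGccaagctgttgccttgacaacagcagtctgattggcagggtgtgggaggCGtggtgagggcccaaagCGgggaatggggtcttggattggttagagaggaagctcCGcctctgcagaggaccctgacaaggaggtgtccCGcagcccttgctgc
The upstream Grb10 stretch holds 40 CpG dinucleotides and the downstream stretch 8, while the interval of 163 bases between Peg3 and Usp29 holds 5. The counts are per gene and do not say which Grb10 start was used.

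In the RefSeq table, 28 of the 35 listed genes had promoter windows, 44 in all. The 250 bases before a start held a median of 10.5 CpG dinucleotides in the windows of imprinted genes (quartiles 6.75 and 18.25), against 6.0 over all 32851 windows (quartiles 2.0 and 16.0). The hexamer TGCCGC (reverse complement GCGGCA), the core that the imprint-protecting zinc finger protein ZFP57 binds, was present in 10 of the 44 windows (22.7%), belonging to Zdbf2, Nnat, Mest, Nap1l5, Zim1, Snrpn, Igf2, Plagl1 and Grb10, against 11.6% of all windows. Overlapping windows of Mest are counted apart among these 10. The hexamer itself holds a CpG, and the difference in CpG content was not allowed for. The letters TGATNNAT (ATNNATCA on the other strand), a site for HOX and PBX proteins together, were in 0 of the 44 windows and in 8.85% of all. The GLI site GACCACCCA (TGGGTGGTC) was in 0 of the 44 and in 0.253% of all. At so small a share, 0 of 44 windows tells nothing about the members. For the HOX-PBX and GLI sites, too, the difference in CpG content was not allowed for. All these counts are matches of letters within 300 bases and describe no binding.

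Several members carry microRNAs inside their transcripts, shown here from RefSeq because the host's level is what was counted. The seed, bases 2 to 8, is in capitals. No mature microRNA was measured, and the hosts are H19 for miR-675, Igf2 for miR-483 and Mest for miR-335.
miR-675-5p: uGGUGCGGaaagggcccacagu
miR-675-3p: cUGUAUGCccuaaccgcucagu
miR-483-3p: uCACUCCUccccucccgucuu
miR-335-5p: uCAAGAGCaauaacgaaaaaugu
The 4 seeds differ from one another.

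Levels are CPM, the count of a gene scaled to the effective size of its library. A gene was called when its Benjamini-Hochberg adjusted p from edgeR's quasi-likelihood test, over all tested genes, was under 0.05. Library totals ran from 13301476 to 26974315 counts. Hoxb1 itself counted 225, 252 and 234 CPM in wild-type NMPs and 13.7, 15.1 and 13.7 CPM in Hoxb1-null NMPs. It counted 0.0725 to 0.668 CPM in NPs without and 317 to 349.5 CPM in NPs with Hoxb1, and 0.396 to 0.519 and 597 to 635 CPM in the same pair with SAG. These levels follow the labels. Residual Hoxb1 reads in the null libraries may lie outside the deleted part, which the sources used here do not give. A list of 10 NMP markers summed to 1799 to 1972 CPM in wild-type NMPs, 1585 to 1714 CPM in null NMPs and 413 to 709 CPM in the NP libraries. In the null, 8 of these 10 were called lower and 2 higher, against 13.9% and 14.9% of all genes. A list of 10 neural progenitor markers summed to 485 to 525 CPM in the NMP libraries and to 1720.2 to 3127 CPM in the NP libraries. Sox2 is in both lists and adds to both sums. From wild-type NMPs to NPs, 9 of the NMP markers were at least 2-fold lower, against 18.3% of all genes. Sox2 alone of that list was higher in NPs (log2 fold change 5.54). By the labels' library numbers, the SAG libraries (2533 to 2538), the NP libraries without SAG (7390 to 7395) and the NMP libraries (8085 to 8090) are separate sets. The effect of SAG, the difference of Hoxb1 effects with and without SAG, and the difference between NMPs and NPs therefore cannot be told apart from the library set. Null replicate 3 stood apart: against the other null libraries its counts gave chi-square values of 5.07 and 3.93 per gene, and all other replicate pairs gave 1.35 to 3.72.

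Marker lists of other cell types moved with the groups as well. A mesenchyme and fibroblast list of 10 genes summed to 555 to 586 CPM in NPs, 1065 to 1101 CPM with Hoxb1, 2288 to 2315 CPM with SAG and 2343 to 2525 CPM with both, and each of its genes was detected in every group. A list of 10 neuron genes summed to 1669 to 1749 CPM in NPs, 2532 to 2678 CPM with Hoxb1, 1014 to 1046 CPM with SAG and 1648 to 1699 CPM with both. In NMPs, 10 pluripotency genes summed to 713 to 771 CPM in wild type and 838 to 999 CPM in the null. The same genes summed to 287 to 325 CPM in NPs, 151 to 177 CPM with Hoxb1, 426 to 464 CPM with SAG and 384 to 415 CPM with both. With Hoxb1 without SAG all 10 were called lower, against 22.1% of all genes. With Hoxb1 in SAG 3 were called higher and 3 lower, against 21.4% and 21.9%. The part of these cells in the results on imprinted genes was not tested, and in such bulk samples fewer cells of a type and less RNA per cell cannot be told apart.

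Nnat stood highest in NPs at 435 CPM per kilobase of exon (CPM per kb), followed by Mest (229.9), Ndn (137) and Cdkn1c (127), and Ascl2 (0.395) and Airn (0.629) stood lowest. In wild-type NMPs the order was another, with Phlda2 (180.2 CPM per kb), Peg10 (122), Peg3 (90.6) and Gnas (88.1) on top and Airn (0.134) and Usp29 (0.176) at the bottom.

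Loss of Hoxb1 in NMPs went with small changes, none of 2-fold (2.17% of all tested genes were at least 2-fold higher and 0.692% lower). Of 32 members tested, 9 were higher and 9 lower in the null (Airn did not pass the low-count filter). Over all tested genes 28.8% were called, 14.9% higher and 13.9% lower. The members' median log2 fold change was -0.05, and that of all genes was -0.00013. Without null replicate 3, which stood apart, 8 members were higher and 10 lower. With Hoxb1 in NPs without SAG, 11 of 33 members were higher and 11 lower, against a background of 46.2% (24.1% higher, 22.1% lower), and again none changed 2-fold (2.85% of all genes were that much higher, 3.04% lower). With SAG, Hoxb1 NPs had 8 members higher and 16 lower, against 43.4% of all genes (21.4% higher, 21.9% lower), and their median was -0.15 against 0.0012. Only H19 fell by at least 2-fold there, and 2.37% of all genes did so, while 2.65% rose as far. Set against the background by direction, 28.1% of the members were higher and 28.1% lower in the null, 33.3% and 33.3% with Hoxb1 without SAG, and 24.2% and 48.5% with Hoxb1 in SAG. The list itself was not tested.

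The difference of the Hoxb1 effects, with SAG minus without, was called above 0 for 8 members and below 0 for 15 of 33, against 35.5% of all genes (16.8% and 18.6%). Peg10 alone differed by 2-fold or more, downwards, as 2.66% of all genes did (2.59% upwards). SAG itself went with 13 members higher and 13 lower without Hoxb1, against 72.7% of genes (36.5% and 36.3%), and with 11 higher and 15 lower with Hoxb1, against 72.2% (36.4% and 35.8%). At 2-fold, 3 members were higher with SAG in cells without Hoxb1 (Phlda2, Peg10, Asb4; background 7.46%) and 0 lower (7.43%). In cells with Hoxb1, 4 were higher (Igf2, Phlda2, Asb4, Grb10; 7.59%) and 2 lower (Usp29, Nap1l5; 7.64%). From wild-type NMPs to NPs, 20 members were higher and 10 lower, against 86.0% of all genes (43.7% and 42.3%). Of them 18 were at least 2-fold higher and 5 at least 2-fold lower, against 25.0% and 18.3% of all genes. The members' median log2 difference from NMP to NP was 1.39, and that of all genes was 0.02.

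**Figure D1:**
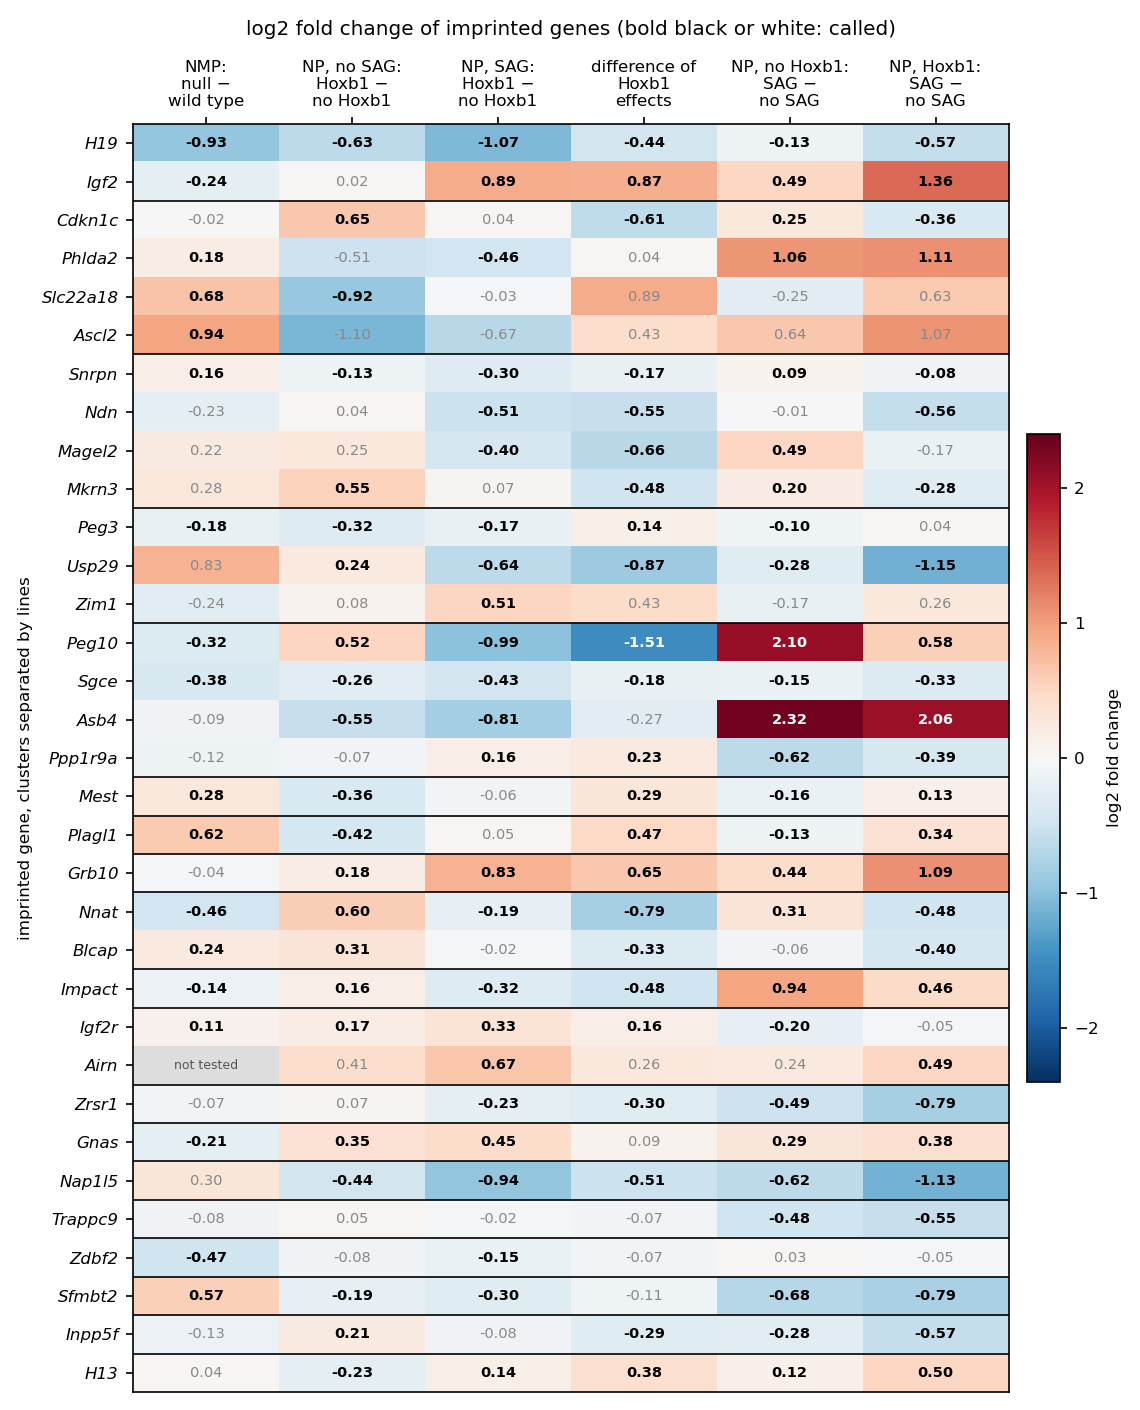
Log2 fold change of the 33 measured imprinted genes (rows, clusters separated by lines) in 6 comparisons (columns), coloured from blue (lower) to red (higher), with called values in bold. Peg10 and Asb4 show the deepest reds, 2.10 and 2.32, for SAG in cells without Hoxb1, and the null NMP column stays between -0.93 and 0.94.

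H19 and Igf2 moved together from NMPs to NPs but went apart under Hoxb1 and SAG. H19, a maternally expressed long noncoding RNA on chromosome 7 (142575529 to 142578143, minus strand), was lower both in NMPs that lacked Hoxb1 and in NPs that were made to express it. Igf2, the paternally expressed insulin-like growth factor (142650766 to 142666816, minus strand), was not called with Hoxb1 alone in NPs and rose to its highest level where Hoxb1 and SAG came together.

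H19 counted 13.8, 16.1 and 15.4 CPM in the wild-type NMP libraries and 7.505, 7.85 and 8.41 CPM in the null libraries. The groups did not overlap, and every null library lay below every wild-type library (log2 fold change -0.93, SE 0.10, adjusted p = 1.71e-07). In NPs, H19 counted 53.9, 58.9 and 51.4 CPM without Hoxb1 and 34.4, 34.95 and 36.6 CPM with it (log2 fold change -0.63, SE 0.06, adjusted p = 1.27e-12). With SAG the corresponding levels were 48.8, 49.4 and 52.3 CPM and 23.8, 23.7 and 24.03 CPM, a 2.102-fold fall with Hoxb1 (log2 fold change -1.07, SE 0.05, adjusted p = 2.73e-21). All libraries with Hoxb1 thus lay below all libraries without it in either medium. The fall was larger with SAG (difference of log2 fold changes -0.44, adjusted p = 1.06e-05).

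SAG by itself went with a difference of -0.13 in H19 (adjusted p = 0.0201), which did not hold in every setting: without NP replicate 2, NP SAG replicate 1 or NP SAG replicate 2 the adjusted p was 0.179, 0.0629 and 0.0555. It was also 0.0513 with DESeq2, 0.0671 with no low-count filter and 0.133 with upper-quartile scaling. In NPs with Hoxb1, SAG went with a fall of H19 by 0.57 on the log2 scale (adjusted p = 2.76e-11).

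Igf2 counted 570.1, 626 and 613 CPM in NPs and 591, 639 and 604 CPM in NPs with Hoxb1, and these libraries overlapped (log2 fold change 0.02, SE 0.03, adjusted p = 0.659). With SAG it counted 841, 847 and 851 CPM, and with SAG and Hoxb1 1599.8, 1538 and 1577 CPM. The last group stood above all others, 1.86-fold over SAG alone (log2 fold change 0.89, SE 0.03, adjusted p = 9.32e-26) and 2.57-fold over Hoxb1 alone (log2 fold change 1.36, SE 0.03, adjusted p = 3.15e-32). The Hoxb1 effect on Igf2 differed between the media by 0.87 on the log2 scale (adjusted p = 1.76e-19). In NMPs, Igf2 counted 102, 113 and 100.4 CPM in wild type and 91.9, 88.8 and 86.02 CPM in the null, with no overlap and a fall by 0.24 (adjusted p = 0.000708). Beside these levels, the mesenchyme list summed to 2288 to 2315 CPM with SAG and 2343 to 2525 CPM with SAG and Hoxb1. Igf2 shares 98 exon bases with the antisense gene Igf2os, and the sources used here do not state how the counting treated strand.

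From wild-type NMPs to NPs, Igf2 rose 5.17-fold (log2 fold change 2.37, SE 0.04, adjusted p = 4.04e-43) and H19 3.26-fold (log2 fold change 1.70, SE 0.07, adjusted p = 8.81e-29). Both genes were lowest in the NMP groups, and no NMP library overlapped an NP library of either gene.

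**Figure D2:**
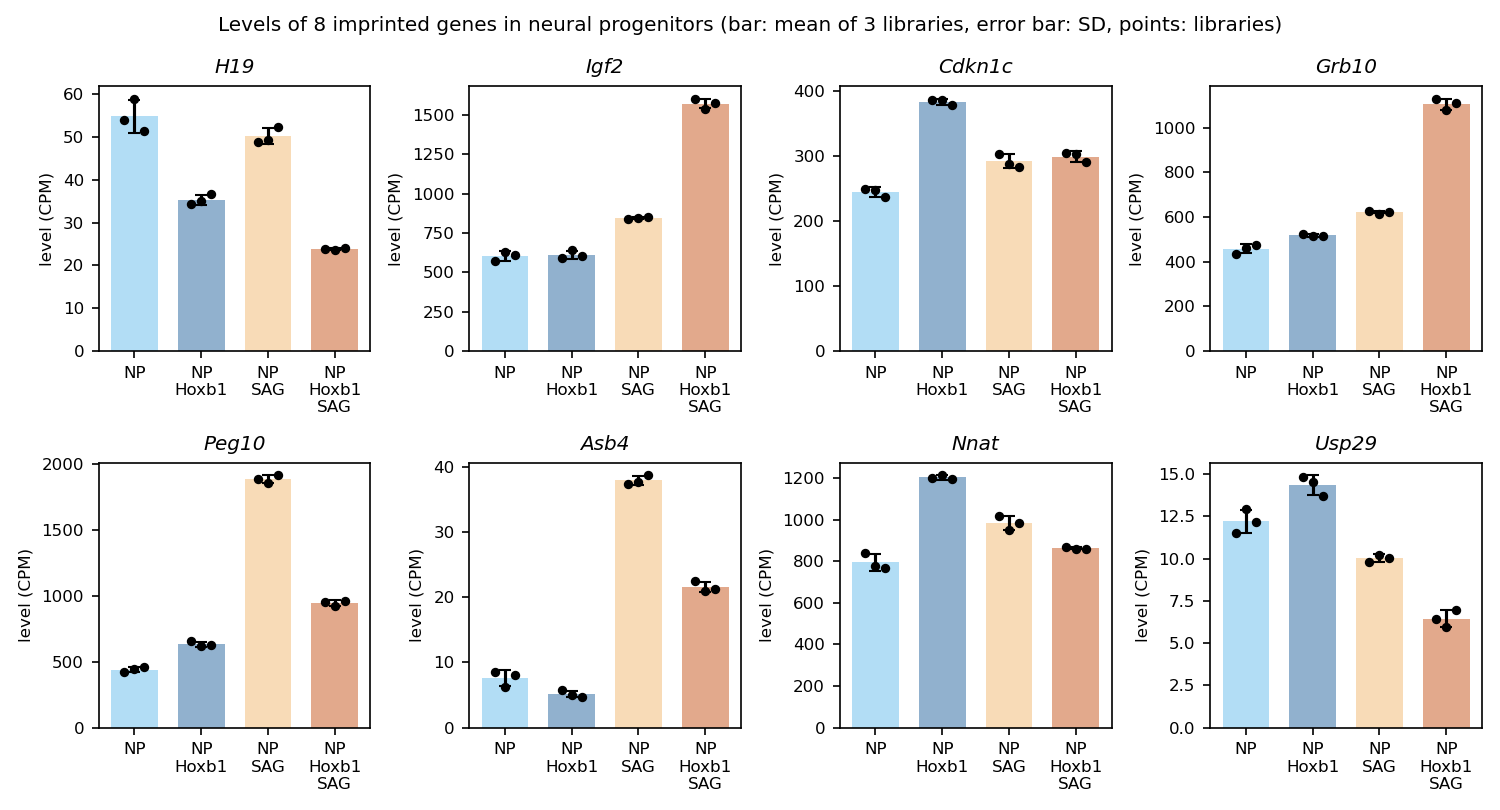
Level in CPM (vertical axes, from 0) of 8 imprinted genes in the 4 NP groups, with the mean of 3 libraries as bar, the SD as error bar and each library as a point. Igf2 and Grb10 stand highest where Hoxb1 and SAG are combined, Peg10 and Asb4 with SAG alone, and H19 is lower with Hoxb1 in both media. The SAG and no-SAG groups belong to different library sets.

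In the Kcnq1ot1 domain next to H19 and Igf2, the growth-restraining genes Cdkn1c and Phlda2 took opposite courses from NMPs to NPs. Cdkn1c, an inhibitor of cyclin-dependent kinases (143458350 to 143461050 on chromosome 7), rose 2.92-fold (log2 fold change 1.55, SE 0.04, adjusted p = 9.17e-33). Phlda2, a small protein with a pleckstrin homology domain known from the placenta (143501545 to 143502541), fell 47.8-fold (log2 fold change -5.58, SE 0.09, adjusted p = 4e-38), the largest change of any member in any comparison here.

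Cdkn1c counted 77.4, 76.5 and 72.9 CPM in wild-type NMPs and 75.5, 67.5 and 81.4 CPM in the null, which overlapped. In NPs it counted 249.6, 248 and 237 CPM without Hoxb1 and 386, 386 and 378 CPM with it, a 1.57-fold rise (log2 fold change 0.65, SE 0.03, adjusted p = 2.59e-20). With SAG no such rise was measured: the libraries held 304, 288 and 284 CPM without Hoxb1 and 305, 303 and 290.3 CPM with it (log2 fold change 0.04, SE 0.03, adjusted p = 0.357). Between the media the Hoxb1 effect differed by -0.61 (adjusted p = 1.27e-14). The neuron list moved in part alike, with sums of 1669 to 1749 CPM without and 2532 to 2678 CPM with Hoxb1, but its sums were also higher with Hoxb1 in SAG, 1014 to 1046 against 1648 to 1699 CPM, where Cdkn1c did not pass the test.

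Phlda2 counted 139, 143 and 127 CPM in wild-type NMPs and 154, 154 and 155 CPM in null NMPs. The null libraries were higher without overlap (log2 fold change 0.18, SE 0.04, adjusted p = 0.00462), a call that was lost without wild-type replicate 3 (adjusted p = 0.0723). In NPs it counted 3.83, 3.56 and 2.101 CPM, and 1.85, 2.24 and 2.59 CPM with Hoxb1. In SAG the libraries held 7.53, 6.78 and 5.48 CPM, and with both 4.89, 5.12 and 4.37 CPM. SAG thus went with about a 2-fold rise, without Hoxb1 (log2 fold change 1.06, SE 0.16, adjusted p = 2.23e-07) and with it (log2 fold change 1.11, SE 0.19, adjusted p = 1.78e-06), at levels far below those of NMPs. With SAG it was lower with Hoxb1 (log2 fold change -0.46, SE 0.13, adjusted p = 0.00266). Without SAG the lower level did not pass (log2 fold change -0.51, SE 0.22, adjusted p = 0.0612). It passed with the replicate number as a block (0.0452), in the 6 libraries alone (0.0402), with no low-count filter (0.0484) and with upper-quartile scaling (0.0498). It passed also when NP replicate 3 (adjusted p = 0.00663) or NP Hoxb1 replicate 3 was left out (0.047).

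The other measured genes of this domain were scarce. Ascl2, a bHLH factor of trophoblast and of intestinal stem cells, counted 2.02, 1.86 and 1.47 CPM in wild-type and 3.99, 2.91 and 3.43 CPM in null NMPs and rose without overlap (log2 fold change 0.94, SE 0.19, adjusted p = 0.000585). Slc22a18, a membrane transporter, counted 4.04, 4.11 and 3.05 and 5.69, 6.08 and 6.23 CPM in the same groups and rose too (log2 fold change 0.68, SE 0.14, adjusted p = 0.000692). With Phlda2, 3 of the 4 measured genes of the domain were thus higher in the null. Beside them, 10 trophoblast markers summed to 545 to 588 CPM in wild type and 431 to 508 CPM in the null. Most of that sum was the keratins Krt8 and Krt18, and Prl3d1 was at 0 in both groups, Elf5 and Tpbpa at 0 in the null. Gene by gene the list did not follow its sum. Of 7 trophoblast markers tested, 2 were higher and 1 lower in the null, against 14.9% and 13.9% of all genes. Their median log2 fold change was 0.32. In NPs without SAG, Slc22a18 counted 1.401, 1.41 and 1.09 CPM without Hoxb1 and 0.426, 0.851 and 0.7902 CPM with it, a fall (log2 fold change -0.92, SE 0.35, adjusted p = 0.0296). DESeq2 did not call it (adjusted p = 0.0659), and it was lost without NP replicate 1, NP replicate 2 or NP Hoxb1 replicate 1 (0.0758, 0.081 and 0.169). From wild-type NMPs to NPs, Slc22a18 fell 3.18-fold (log2 fold change -1.67, SE 0.22, adjusted p = 1.9e-09) and Ascl2 3.08-fold (log2 fold change -1.62, SE 0.33, adjusted p = 1.69e-05), and Ascl2 counted 0.369, 0.742 and 0.797 CPM in NPs. Ascl2 stayed at or under 1.15 CPM in every NP library. Its changes there did not pass the test in the fit of the 12 NP libraries, and both single libraries and settings decided this. The lower level with Hoxb1 passed without NP replicate 1 (adjusted p = 0.0473) or NP Hoxb1 replicate 2 (0.0137), and in SAG without NP Hoxb1 SAG replicate 3 (0.0458) or in the 6 libraries alone (0.0483). The higher level with SAG in cells with Hoxb1 (log2 fold change 1.07, SE 0.50, adjusted p = 0.0519) passed without NP Hoxb1 replicate 2 (0.00567) or NP Hoxb1 SAG replicate 1 (0.0329), with the replicate number as a block (0.0487), in the fit of all 18 libraries (0.0472), with no low-count filter (0.0385) and with upper-quartile scaling (0.0437).

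**Figure D3:**
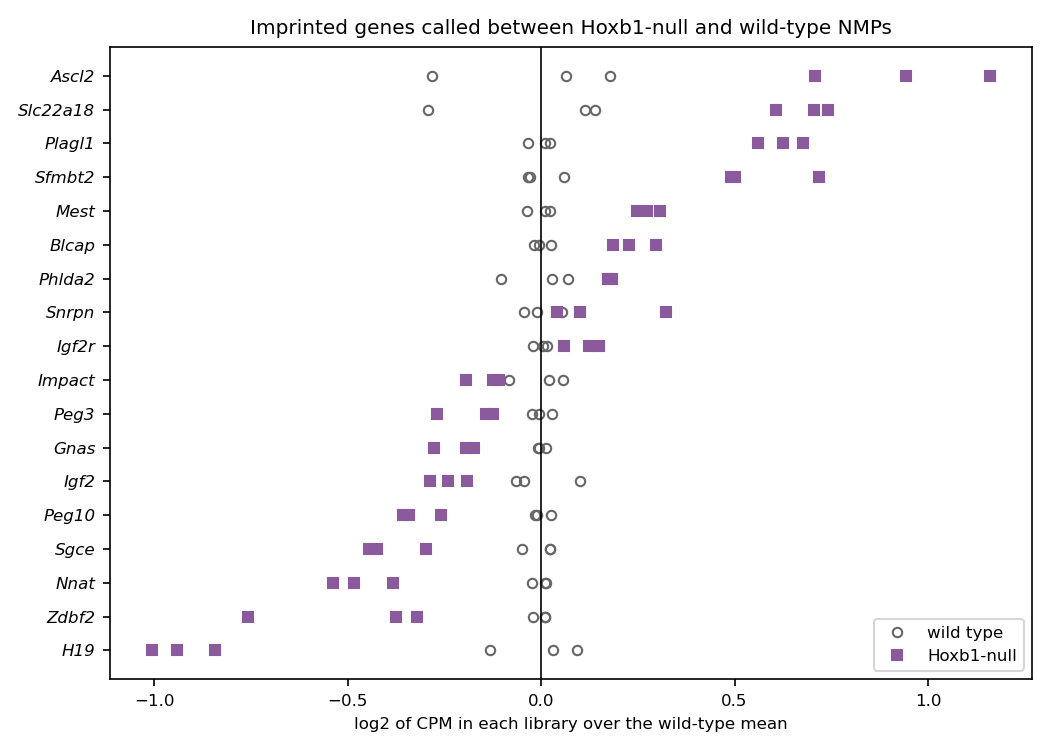
Log2 of the CPM in each NMP library over the wild-type mean (horizontal axis) for the 18 imprinted genes called in the null (rows, ordered by change), with wild type as open circles and Hoxb1-null as filled squares. H19 lies lowest, at -0.93 in the fit, and Ascl2 highest, at 0.94. Single libraries of Snrpn and of Zdbf2 lie away from their group.

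The Peg10-Sgce cluster on chromosome 6 held the widest swing with SAG. Peg10, a paternally expressed gene derived from a retrotransposon gag-pol (4747306 to 4760517, plus strand), was higher with Hoxb1 in plain medium and lower with Hoxb1 in SAG. Asb4, a maternally expressed subunit of a ubiquitin ligase (5383386 to 5433022, plus strand), was several-fold higher with SAG whether or not Hoxb1 was there.

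Peg10 counted 422, 443 and 456 CPM in NPs and 654, 619 and 622 CPM with Hoxb1 (log2 fold change 0.52, SE 0.03, adjusted p = 1.07e-17). With SAG it counted 1880.3, 1851 and 1913 CPM, and with SAG and Hoxb1 955, 921 and 959 CPM (log2 fold change -0.99, SE 0.03, adjusted p = 3.81e-28). No libraries of these 4 groups overlapped, and the order was NPs, Hoxb1, SAG with Hoxb1, SAG alone. The rise with SAG was 4.27-fold without Hoxb1 (log2 fold change 2.10, SE 0.03, adjusted p = 8.51e-39) and 1.496-fold with it (log2 fold change 0.58, SE 0.03, adjusted p = 3.2e-20). The Hoxb1 effects in the 2 media differed by -1.51 on the log2 scale (adjusted p = 3.56e-28), the largest such difference among the members. In NMPs, Peg10 counted 831, 807 and 809 CPM in wild type and 682, 644 and 637 CPM in the null (log2 fold change -0.32, SE 0.04, adjusted p = 4.35e-07), again without overlap, and wild-type NMPs stood 2.06-fold above NPs (log2 fold change -1.04, SE 0.03, adjusted p = 2.17e-31).

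Asb4 counted 8.48, 6.16 and 8.04 CPM in NPs and 37.4, 37.7 and 38.8 CPM with SAG, a 5.01-fold rise (log2 fold change 2.32, SE 0.08, adjusted p = 1.99e-26). In cells with Hoxb1 it counted 5.75, 5.03 and 4.74 CPM, and 22.4, 20.99 and 21.3 CPM with SAG, a 4.16-fold rise (log2 fold change 2.06, SE 0.10, adjusted p = 5.42e-22). Hoxb1 went with lower Asb4 in both media (log2 fold change -0.55 without and -0.81 with SAG, adjusted p = 0.000506 and 1.8e-15), and those effects were not shown to differ (difference -0.27, adjusted p = 0.148). In NMPs it counted 9.05, 7.17 and 9.46 CPM in wild type and 5.98, 8.06 and 9.95 CPM in the null, which overlapped. The fall from wild-type NMPs to NPs (-0.32, adjusted p = 0.029) was lost without wild-type replicate 1 (0.0796), wild-type replicate 3 (0.132) or NP replicate 2 (0.201).

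Sgce, epsilon-sarcoglycan, which shares a control region with Peg10 and is transcribed away from it, did not follow Peg10. It counted 85.8, 84.8 and 87.4 CPM in NPs, 68.9, 74.3 and 72.5 CPM with Hoxb1, 77.1, 77.3 and 77.4 CPM with SAG and 59.9, 57.3 and 54.5 CPM with both. Each of the 3 treated groups was below NPs, and Sgce was lower with Hoxb1 in both media (-0.26 and -0.43, adjusted p = 3.87e-06 and 2.9e-12). The difference of those effects (-0.18, adjusted p = 0.0174) was lost without NP Hoxb1 replicate 2 (0.0674) or NP Hoxb1 SAG replicate 3 (0.088). Sgce was also lower in null NMPs (-0.38, adjusted p = 0.000985) and counted 17.7, 16.9 and 17.7 CPM in wild-type NMPs, from where it rose 4.45-fold to NPs (log2 fold change 2.15, SE 0.06, adjusted p = 3.46e-36), the opposite direction to Peg10. Ppp1r9a, the actin-binding neurabin of neurons, counted 35.7, 32.8 and 31.1 CPM in wild-type NMPs and 138, 141 and 141 CPM in NPs, a 3.81-fold rise (log2 fold change 1.93, SE 0.06, adjusted p = 2.81e-31). It was lower with SAG (log2 fold change -0.62 without and -0.39 with Hoxb1, adjusted p = 3.43e-18 and 3.73e-12). With Hoxb1 in SAG it was slightly higher (0.16, adjusted p = 0.000377).

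Grb10, an adaptor protein that restrains insulin and IGF receptor signalling (chromosome 11, 11930508 to 12038683, minus strand), followed a course like that of Igf2 in NPs. It counted 436, 462 and 476 CPM in NPs and 525, 516 and 514 CPM with Hoxb1 (log2 fold change 0.18, SE 0.03, adjusted p = 7.19e-06). With SAG it counted 625, 615 and 622 CPM, and with both 1127, 1078 and 1109 CPM, so that every library with both lay above every other library. Hoxb1 went with a 1.78-fold rise in SAG (log2 fold change 0.83, SE 0.03, adjusted p = 1.37e-25), and SAG with a 2.13-fold rise in cells with Hoxb1 (log2 fold change 1.09, SE 0.03, adjusted p = 8.1e-30). The Hoxb1 effect was larger in SAG by 0.65 (adjusted p = 3.33e-16). In NMPs it counted 403, 415 and 401 CPM in wild type and 401, 412 and 377 CPM in the null, which overlapped (log2 fold change -0.04, SE 0.04, adjusted p = 0.518), and wild-type NMPs and NPs did not differ in the test (log2 fold change 0.02, SE 0.04, adjusted p = 0.553). Genes of chromosome 11 as a whole had a median log2 change of -0.13 with Hoxb1 in SAG and of -0.16 with SAG in cells with Hoxb1, against 0.0012 and 0.01 over all genes, and Grb10 moved the other way from its chromosome in both. From NMPs to NPs the chromosome's median was 0.40, above the log2 difference of 0.02 for Grb10. The part of this shift in the results was not tested.

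Zrsr1, a paternally expressed splicing factor gene on the same chromosome (22972005 to 22976496, plus strand), lies within Commd1. It counted 35.4, 33.5 and 33.7 CPM with SAG and 28.9, 27.96 and 30.5 CPM with SAG and Hoxb1 (log2 fold change -0.23, SE 0.05, adjusted p = 0.000445), a fall that stands beside the chromosome's median of -0.13. With SAG it was lower without Hoxb1 (-0.49) and with it (-0.79, beside a chromosome median of -0.16). It shares 412 exon bases with Commd1 on the opposite strand.

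At the Peg3 cluster at the proximal end of chromosome 7, the members that start back to back diverged. Peg3, a zinc finger protein of maternal behaviour and growth, was high everywhere and changed little with Hoxb1 or SAG. Usp29, a deubiquitinase gene transcribed the other way from the shared interval printed above, was almost silent in NMPs and low in NPs. The Usp29 row of the table is a single exon (6961160 to 6963769) far from that start.

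Peg3 counted 1187 to 1230.2 CPM in wild-type NMPs, 1001 to 1107 in the null, 853 to 873 in NPs and 682 to 714 in those with Hoxb1. With SAG the ranges were 777 to 836 CPM and, with both, 697 to 737 CPM. It was lower in null NMPs (-0.18, adjusted p = 0.000961) and lower with Hoxb1 in both media (-0.32 and -0.17, adjusted p = 1.6e-11 and 7e-06). None of these changes was larger than 1.24-fold. Peg3 was also called lower from wild-type NMPs to NPs (log2 fold change -0.63). The difference of the Hoxb1 effects (0.14, adjusted p = 0.0083) was lost without NP Hoxb1 SAG replicate 3 (0.0517), and the fall with SAG in cells without Hoxb1 (-0.10, adjusted p = 0.00221) was lost with upper-quartile scaling (0.0717).

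Usp29 counted 0.489, 0.669 and 0.218 CPM in wild-type NMPs and 11.5, 12.9 and 12.2 CPM in NPs, a 23.2-fold rise (log2 fold change 4.54, SE 0.19, adjusted p = 1.54e-27). In NPs with Hoxb1 it counted 14.8, 14.5 and 13.7 CPM (log2 fold change 0.24, SE 0.09, adjusted p = 0.0308). This small rise was lost with DESeq2 (0.0902), upper-quartile scaling (0.0557) and all 18 libraries in one fit (0.0576), and without NP replicate 1 (0.134), NP replicate 3 (0.0647), NP Hoxb1 replicate 1 (0.101) or NP Hoxb1 replicate 2 (0.0832). In SAG it counted 9.78, 10.2 and 10.03 CPM, and with both 6.43, 5.96 and 6.96 CPM, the lowest NP level (log2 fold change -0.64, SE 0.09, adjusted p = 9.96e-08). SAG in cells with Hoxb1 went with a 2.23-fold fall (log2 fold change -1.15, SE 0.09, adjusted p = 1.59e-14), and the Hoxb1 effects differed by -0.87 (adjusted p = 3.93e-07). Zim1, the maternally expressed zinc finger gene of the cluster, counted 2.08, 1.77 and 2.66 CPM in wild-type NMPs and 18.1, 19.2 and 17.2 CPM in NPs, a 7.57-fold rise (log2 fold change 2.92, SE 0.18, adjusted p = 1.72e-13). It counted 12.3 to 18.9 CPM with SAG and 20.95 to 24.2 CPM with SAG and Hoxb1, and was called higher there (0.51, adjusted p = 0.00588).

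The Snrpn-Ndn cluster of chromosome 7, the mouse counterpart of the Prader-Willi region, split into Snrpn, expressed at similar levels in all groups, and 3 intronless genes that came up in NPs. Necdin (Ndn), a MAGE-family protein of postmitotic neurons, counted 13.6, 12.1 and 12.997 CPM in wild-type NMPs and 224, 227 and 229 CPM in NPs, a 15.9-fold rise (log2 fold change 3.99, SE 0.05, adjusted p = 2.5e-49). Magel2, a MAGE protein of endosomal recycling, counted 4.16, 2.68 and 2.94 and 50.4, 54.1 and 50.9 CPM, 14.6-fold more (log2 fold change 3.86, SE 0.18, adjusted p = 6.69e-12). Mkrn3, a ring finger ubiquitin ligase, counted 5.63, 4.88 and 5.28 and 34.1, 28.2 and 31.7 CPM, 5.39-fold more (log2 fold change 2.43, SE 0.10, adjusted p = 2.77e-28). NMP and NP libraries of these 3 genes did not overlap.

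Ndn did not change with Hoxb1 beyond the spread in plain medium (228, 238 and 235 CPM with Hoxb1, log2 fold change 0.04, SE 0.03, adjusted p = 0.312). With SAG it counted 232, 215 and 227 CPM without Hoxb1 and 160.4, 157 and 156 CPM with it, which did not overlap (log2 fold change -0.51, SE 0.03, adjusted p = 2.52e-17). The group with both was the lowest of the 4 and the others lay close together. Magel2 counted 50.4 to 54.1 CPM in NPs and 60.1 to 63.5 CPM with Hoxb1, without overlap, and the difference did not pass (log2 fold change 0.25, SE 0.14, adjusted p = 0.165) except with the replicate number as a block (adjusted p = 0.0321) or in the 6 libraries alone (5.04e-05). Like Ndn it was lower with Hoxb1 in SAG (63.6 to 83.7 against 46.8 to 59.8 CPM, -0.40, adjusted p = 0.0182), a call that was lost when the 6 libraries were fitted alone (0.107). Mkrn3 was higher with Hoxb1 in plain medium (28.2 to 34.1 against 44.7 to 47.2 CPM, 0.55, adjusted p = 1.27e-07) and did not pass with SAG (0.07, adjusted p = 0.395). The difference of the Hoxb1 effects was below 0 for all 4 measured genes of the cluster, at -0.55 for Ndn, -0.66 for Magel2, -0.48 for Mkrn3 and -0.17 for Snrpn. The rise of Mkrn3 with SAG in cells without Hoxb1 (0.20, adjusted p = 0.0101) was lost without NP replicate 2 (0.14).

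Snrpn, a spliceosomal protein gene, counted 101 to 108 CPM in wild-type NMPs, 107 to 130.0 in the null, 101 to 104 in NPs and 91.01 to 97.2 in those with Hoxb1. The SAG libraries ranged over 109 to 109.7 CPM and those with both over 86.8 to 90.2 CPM. It fell with Hoxb1 in SAG (log2 fold change -0.30, SE 0.03, adjusted p = 9.36e-10). In the fit of all 18 libraries it was called lower from wild-type NMPs to NPs (log2 fold change -0.17). In NMPs the rise in the null (0.16, adjusted p = 0.0463) rested on null replicate 3 and was lost without it (0.197). It was lost also without wild-type replicate 1 (0.173), 2 (0.0606) or 3 (0.132) and with DESeq2 (0.0757). The SAG changes, 0.09 without and -0.08 with Hoxb1, and the difference of the Hoxb1 effects were all lost in the fit of all 18 libraries (0.083, 0.15 and 0.051). The change with SAG in cells with Hoxb1 was lost in 5 further settings, with adjusted p from 0.0782 (the 6 libraries alone) to 0.408 (upper-quartile scaling), and without NP Hoxb1 replicate 1 or 2 or NP Hoxb1 SAG replicate 2 or 3 (0.0858, 0.176, 0.191 and 0.0736). The change without Hoxb1 was lost without NP replicate 1 or 2 or NP SAG replicate 3 (0.12, 0.0795 and 0.0501). The row shares 216 exon bases with another annotated gene on the same strand, so some reads may have been split or dropped.

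Nnat, neuronatin, a small membrane protein of developing brain, sits in an intron of Blcap on chromosome 2 and was the most abundant member per kilobase in every NP group. It counted 49.5, 48.4 and 49.7 CPM in wild-type and 33.9, 35.2 and 37.7 CPM in null NMPs, without overlap (log2 fold change -0.46, SE 0.06, adjusted p = 1.73e-06). In NPs it counted 841, 777 and 766 CPM, 14.6-fold above wild-type NMPs (log2 fold change 3.87, SE 0.04, adjusted p = 5.49e-52), and 1202, 1214 and 1193 CPM with Hoxb1 (log2 fold change 0.60, SE 0.03, adjusted p = 9.38e-20). With SAG the order was reversed, 1018, 950.2 and 985 CPM without Hoxb1 and 867, 861 and 859.8 CPM with it (log2 fold change -0.19, SE 0.03, adjusted p = 2.4e-06). Nnat was thus lower without Hoxb1 in NMPs, higher with Hoxb1 in NPs and lower with Hoxb1 in NPs given SAG. The difference of the Hoxb1 effects was -0.79 (adjusted p = 2.1e-18). Blcap, a gene of apoptosis named from bladder cancer, also rose with Hoxb1 without SAG (114 to 121 against 142 to 148 CPM, 0.31, adjusted p = 3.12e-09) and did not pass with SAG (-0.02, adjusted p = 0.68), but in NMPs it was higher in the null (0.24, adjusted p = 0.00144). It counted 47.5, 48.99 and 47.96 CPM in wild-type NMPs and 121, 114 and 117 CPM in NPs, a 2.19-fold rise (log2 fold change 1.13, SE 0.04, adjusted p = 2.5e-28).

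Mest and Plagl1 followed the same course in all comparisons in which both passed. Mest, a paternally expressed hydrolase of mesoderm and placenta (chromosome 6, 30723547 to 30748455), counted 77.4, 74.2 and 76.7 CPM in wild-type and 91.99, 90.3 and 94.1 CPM in null NMPs (log2 fold change 0.28, SE 0.04, adjusted p = 5.97e-05). Plagl1, a zinc finger factor known to act on other imprinted genes (chromosome 10, 13090691 to 13131694), counted 14.3, 14.8 and 14.9 and 23.5, 22.6 and 21.6 CPM (log2 fold change 0.62, SE 0.07, adjusted p = 1.42e-06). Null libraries of both genes lay above all wild-type libraries. In NPs, Mest counted 899.9, 893 and 922 CPM without Hoxb1 and 702, 702 and 713 CPM with it (log2 fold change -0.36, SE 0.03, adjusted p = 2.77e-13), and Plagl1 245, 239.8 and 241 and 184, 182 and 175 CPM (log2 fold change -0.42, SE 0.03, adjusted p = 8.59e-14). Both were therefore higher where Hoxb1 was missing in NMPs and lower where it was induced in NPs. With SAG neither passed (-0.06, adjusted p = 0.0725, and 0.05, adjusted p = 0.22), and the difference of the effects was 0.29 for Mest and 0.47 for Plagl1 (adjusted p = 3.28e-07 and 4.8e-11). The small difference of Mest in SAG passed without NP Hoxb1 SAG replicate 1 (0.0395) or NP SAG replicate 2 (0.0112), and with upper-quartile scaling (0.00911). From NMPs to NPs, Mest rose 10.7-fold (log2 fold change 3.42, SE 0.04, adjusted p = 1.16e-51) and Plagl1 14.9-fold (log2 fold change 3.89, SE 0.05, adjusted p = 2.11e-49). Mest shares 902 exon bases, 22.9% of its exon length, with Copg2 on the opposite strand.

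Igf2r, the maternally expressed receptor that takes IGF2 up for degradation, changed little, and it was slightly higher with Hoxb1 in both NP pairs. It counted 285 to 300.2 CPM in NPs and 319 to 337 CPM with Hoxb1 (log2 fold change 0.17, SE 0.04, adjusted p = 0.000274), 235 to 267 with SAG and 307 to 327 with both (log2 fold change 0.33, SE 0.04, adjusted p = 1.43e-09). The Hoxb1 groups lay above their controls without overlap. Airn, the paternal antisense RNA that silences Igf2r, moved in the same direction, from 2.47, 2.99 and 2.46 CPM with SAG to 4.36, 3.99 and 4.37 CPM with SAG and Hoxb1 (log2 fold change 0.67, SE 0.13, adjusted p = 5.2e-05), and from 2.21, 2.301 and 2.25 to 2.98, 3.02 and 3.02 CPM without SAG, where it did not pass (log2 fold change 0.41, SE 0.19, adjusted p = 0.0726). In wild-type NMPs Airn counted 0.428, 0.574 and 0.435 CPM, and it rose 4.15-fold to NPs (log2 fold change 2.05, SE 0.27, adjusted p = 2.1e-09) while Igf2r fell 1.29-fold (adjusted p = 1.91e-12). As RNA was selected by poly(A) tails, much of Airn, which is largely unspliced, may go uncounted. In NMPs the rise of Igf2r in the null (0.11, adjusted p = 0.023) was lost with no low-count filter (0.0566) and without null replicate 1 (0.0841) or wild-type replicate 1, 2 or 3 (0.0877, 0.129 and 0.069). The difference of the Hoxb1 effects on Igf2r (0.16, adjusted p = 0.0155) was lost without any of NP replicate 2 (0.0555), NP Hoxb1 replicate 3 (0.0514), NP SAG replicate 1 (0.0708) and NP Hoxb1 SAG replicate 3 (0.0549).

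Gnas, the stimulatory G protein subunit with several promoters imprinted in different ways, was among the most abundant members. It counted 1312, 1254 and 1254 CPM in NPs, 1606, 1624 and 1647 with Hoxb1, 1579.7, 1511 and 1566 with SAG and 2158, 2107 and 2076 with both. It was higher with Hoxb1 in both media (log2 fold change 0.35, SE 0.03, adjusted p = 1e-13, and log2 fold change 0.45, SE 0.03, adjusted p = 4.82e-17), and those effects were not shown to differ (0.09, adjusted p = 0.0694). Without NP SAG replicate 1 that difference passed (adjusted p = 0.0494). In null NMPs it was lower (981 to 995 against 814 to 875 CPM, -0.21, adjusted p = 6.03e-05). Gnas was thus higher where Hoxb1 was present in all 3 pairs of groups, by at most 1.36-fold. The row pools its transcripts and shares 988 exon bases with Nespas and 1469 with Gm20721, both antisense.

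Impact, an inhibitor of the kinase GCN2 kept high in brain, was lower in NPs than in NMPs. It counted 260.0, 242 and 266 CPM in wild-type NMPs and 74.7, 73.6 and 77.8 CPM in NPs, a 3.77-fold fall (log2 fold change -1.91, SE 0.04, adjusted p = 4.99e-40). In SAG it counted 147, 142 and 145 CPM, 1.92-fold more (log2 fold change 0.94, SE 0.04, adjusted p = 7.01e-25), and 118, 115 and 114 CPM with SAG and Hoxb1 (log2 fold change -0.32, SE 0.03, adjusted p = 5.26e-11). The Hoxb1 effects differed by -0.48 (adjusted p = 5.26e-10), and without SAG it rose slightly with Hoxb1 (0.16, adjusted p = 0.00123). Its fall in null NMPs (-0.14, adjusted p = 0.0124) was lost without wild-type replicate 1 (0.0578) or 3 (0.107).

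Nap1l5, an intronless paternally expressed gene for a nucleosome assembly protein-like factor within an intron of Herc3, fell with Hoxb1 and with SAG. It counted 14.7, 15.3 and 13.8 CPM in NPs, 11.6, 10.2 and 10.4 CPM with Hoxb1, 9.48, 9.41 and 9.48 CPM with SAG and 5.15, 4.75 and 4.86 CPM with both. The 4 groups lay in that order without overlap. With SAG the Hoxb1 effect was a 1.92-fold fall (log2 fold change -0.94, SE 0.09, adjusted p = 3.28e-11) and without SAG a 1.35-fold fall (log2 fold change -0.44, SE 0.09, adjusted p = 0.000129). In cells with Hoxb1, SAG went with a 2.19-fold fall (log2 fold change -1.13, SE 0.10, adjusted p = 7.1e-13). The Hoxb1 effects differed by -0.51 (adjusted p = 0.00228). In NMPs it counted 1.896, 1.39 and 0.761 CPM in wild type and 1.49 to 1.87 CPM in the null, which overlapped. From wild-type NMPs it rose 9.83-fold to NPs (log2 fold change 3.30, SE 0.15, adjusted p = 1.24e-25).

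Of the clusters with a single measured gene that remain, Sfmbt2 and Zdbf2 changed in the null NMPs. Sfmbt2, a Polycomb-group gene of extraembryonic tissue, counted 34.1, 32.1 and 31.98 CPM in wild-type and 53.9, 45.95 and 46.3 CPM in null NMPs, without overlap (log2 fold change 0.57, SE 0.06, adjusted p = 6.08e-07). Zdbf2, a zinc finger gene set by an early embryonic imprint, counted 224, 224 and 219.7 and 178, 172 and 132 CPM (log2 fold change -0.47, SE 0.11, adjusted p = 0.0222). Null replicate 3 was the lowest, and without wild-type replicate 3 the call was lost (0.052). In NPs, Sfmbt2 was lower with SAG (-0.68 without and -0.79 with Hoxb1, adjusted p = 3.24e-12 and 2.86e-13) and lower with Hoxb1 in SAG (-0.30, adjusted p = 0.000279). Its fall with Hoxb1 in plain medium (-0.19, adjusted p = 0.0188) was lost without NP replicate 3 (0.0838) or NP Hoxb1 replicate 2 (0.0597). Zdbf2 was slightly lower with Hoxb1 in SAG (-0.15, adjusted p = 0.000259), a call lost in the fit of all 18 libraries (0.118).

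Inpp5f, Trappc9 and H13 moved with SAG and from NMPs to NPs, and Inpp5f and H13 moved with Hoxb1 as well. Inpp5f, an inositol phosphatase, counted 38.6, 34.8 and 35.6 CPM in wild-type NMPs and 105, 104 and 108 CPM in NPs, a 2.63-fold rise (log2 fold change 1.39, SE 0.05, adjusted p = 2.71e-31). It was lower with SAG (-0.28 without and -0.57 with Hoxb1, adjusted p = 9.2e-09 and 1.86e-17). It was higher with Hoxb1 only in the pair without SAG (0.21, adjusted p = 1.31e-05; with SAG -0.08, adjusted p = 0.065), and the effects differed by -0.29 (adjusted p = 1.92e-05). Without NP Hoxb1 SAG replicate 3 the lower level with Hoxb1 in SAG passed too (0.0219). So it did with upper-quartile scaling (0.0143) and with a filter of at least 1 CPM in 3 libraries (0.047). Trappc9, a subunit of a vesicle-tethering complex that hosts Peg13, did not pass in any Hoxb1 comparison (log2 fold changes -0.08, 0.05 and -0.02). It counted 25.99, 26.3 and 25.99 CPM in wild-type NMPs and 81.5, 83.1 and 82.7 CPM in NPs, a 2.84-fold rise (log2 fold change 1.51, SE 0.05, adjusted p = 1.14e-30), and was lower with SAG (-0.48 without and -0.55 with Hoxb1, adjusted p = 2.11e-13 and 3.22e-15). H13, the signal peptide peptidase gene, was lower with Hoxb1 without SAG (-0.23, adjusted p = 4.97e-05) and higher with Hoxb1 in SAG (0.14, adjusted p = 0.00264), and the effects differed by 0.38 (adjusted p = 2.66e-06). Its rise with SAG alone (0.12, adjusted p = 0.01) was lost without NP replicate 3 (0.154). With SAG in cells with Hoxb1, H13 was called higher (log2 fold change 0.50). From wild-type NMPs to NPs it was called lower (log2 fold change -0.62).

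**Figure D4:**
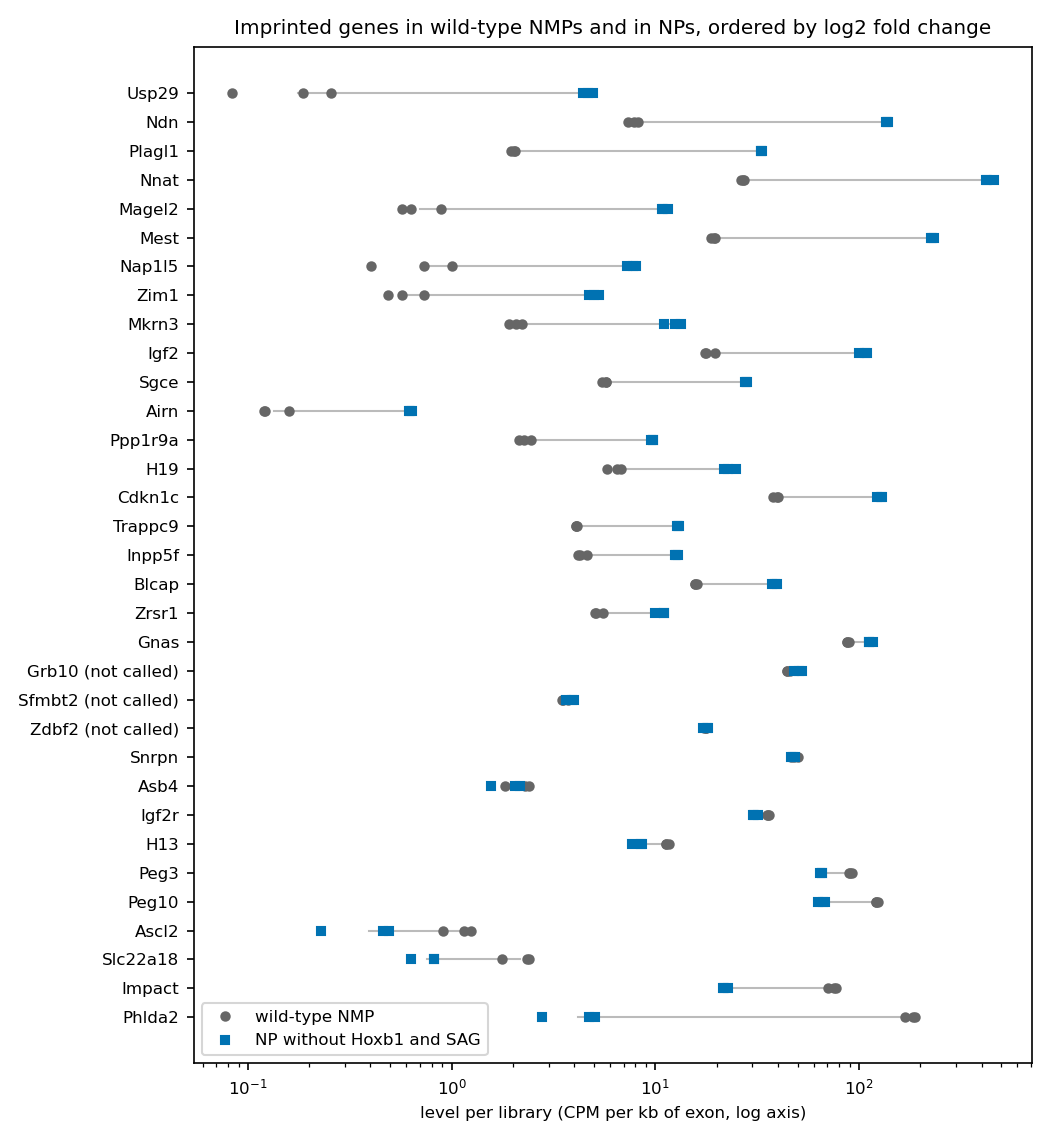
Level per library in CPM per kilobase of exon (horizontal log axis) of the 33 imprinted genes in wild-type NMPs (grey circles) and in NPs without Hoxb1 or SAG (blue squares), ordered by log2 fold change from Usp29 (4.54) at the top to Phlda2 (-5.58) at the bottom. Lines join the group means, and 20 genes were called higher and 10 lower in NPs. The levels use the scaling of each lineage's own fit. The order and the calls come from the fit of all 18 libraries, so the plotted distances can differ from the fitted changes.

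From NMPs to NPs, members expressed from either parental copy both rose and fell. The 18 members at least 2-fold higher in NPs included paternally expressed genes (Usp29, Ndn, Plagl1, Nnat, Magel2, Mest, Nap1l5, Mkrn3, Igf2, Sgce, Airn) and maternally expressed ones (Zim1, Ppp1r9a, H19, Cdkn1c). The 5 that fell as far, Phlda2, Impact, Slc22a18, Ascl2 and Peg10, held 3 maternally expressed genes of the Kcnq1ot1 domain and 2 paternally expressed genes. Phlda2 and Cdkn1c, Peg10 and Sgce, and Igf2r and Airn moved in opposite directions within their clusters. Of the Dlk1-Dio3 list, measured in the same way for 6 of 8 genes, 4 rose and 1 (Wars, a flanking gene) fell from NMPs to NPs, where 43.7% of all genes rose and 42.3% fell. Dlk1, a paternally expressed ligand of the Notch family, rose from 9.95 to 91.1 CPM (3.03, adjusted p = 1.07e-40). In null NMPs, 1 of 5 tested genes of that list was higher and 1 lower, against 14.9% and 13.9% of all genes. The lower gene was Meg3, a maternally expressed noncoding RNA (log2 fold change -3.69, SE 0.04, adjusted p = 6.7e-25).

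Factors that write or protect imprints were followed as a list of 23 genes. In null NMPs, 3 were higher and 7 lower of 22 tested (13.6% and 31.8%, against 14.9% and 13.9% of all genes). Dnmt3l, the cofactor of the de novo DNA methyltransferases, counted 2.202, 2.68 and 3.05 CPM in wild type and 8.33, 7.23 and 7.78 CPM in the null (log2 fold change 1.54, SE 0.14, adjusted p = 2.96e-08). In NPs, 9 of 23 were higher and 6 lower with Hoxb1 (39.1% and 26.1%, against 24.1% and 22.1% of all genes), and with SAG 7 were higher and 6 lower (30.4% and 26.1%, against 21.4% and 21.9%). Dppa3, which protects maternal methylation in the zygote, fell with Hoxb1 (-1.06 without and -0.64 with SAG). Dnmt3b counted 26.9, 24.4 and 21.4 CPM in NPs, 21.7, 23.2 and 26.3 with Hoxb1, 243, 207 and 216 with SAG and 88.1, 82.9 and 81.97 with both, and this de novo methyltransferase fell with Hoxb1 in SAG (log2 fold change -1.40, SE 0.06, adjusted p = 1.36e-09). Without SAG the log2 fold change was -0.03 (adjusted p = 0.864), and the effects differed by -1.37 (adjusted p = 5.42e-06). Zfp57, whose core letters were counted in the promoters above, rose there (102 to 119.9 against 149.8 to 196 CPM, 0.68, adjusted p = 0.000588). The sums of the pluripotency genes, given above, also moved between these groups, and their part in these changes was not tested. Methylation was not measured in these libraries.

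Genes of IGF signalling, 17 in the list, fell in part with loss of Hoxb1: 7 of 14 tested were lower in null NMPs and 0 were higher. They included the RNA-binding protein Igf2bp2 (-0.56, adjusted p = 3.34e-09), the binding protein Igfbp3 (-0.54, adjusted p = 4.48e-07) and the receptor substrate Irs1 (-0.43, adjusted p = 5.58e-06), and the background share of lower calls was 13.9%. With Hoxb1 in NPs, 5 of 16 were higher and 8 lower without SAG, against 24.1% and 22.1% of all genes, and 7 higher and 6 lower with SAG, against 21.4% and 21.9%. Igf1, the second ligand of the receptor, counted 1.401, 0.965 and 1.304 CPM in NPs and 7.95, 5.57 and 7.11 with Hoxb1 (log2 fold change 2.49, SE 0.20, adjusted p = 1.56e-13), and 5.62, 6.74 and 6.67 and 23.4, 19.9 and 19.9 CPM in the pair with SAG (log2 fold change 1.72, SE 0.09, adjusted p = 7.96e-20). Igfbp4, which binds both ligands, rose with Hoxb1 in plain medium (1.95, adjusted p = 3.5e-36). Pappa, the protease that cuts IGFBP4, fell with Hoxb1 without SAG (-1.40, adjusted p = 6.72e-06) and rose with it in SAG (1.40, adjusted p = 3.82e-07), in the same direction in SAG as Igf2.

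Among 47 neighbours and further imprinted genes, 8 were higher and 6 lower of 36 tested in null NMPs (22.2% and 16.7%, against 14.9% and 13.9% of all genes). With Hoxb1 in NPs the counts were 13 and 8 of 41 (31.7% and 19.5%, against 24.1% and 22.1%), and in SAG 14 and 14 of 41 (34.1% each, against 21.4% and 21.9%). The genes named next are those with the largest changes and do not stand for the list. Near Peg10 lies Calcr, the calcitonin receptor. It counted 1.33, 1.26 and 0.362 CPM in NPs, 4.54, 4.64 and 3.74 with Hoxb1, 3.63, 3.89 and 3.65 with SAG and 1.41, 1.17 and 1.62 with both. Like Peg10 it was higher with Hoxb1 in plain medium (2.13, adjusted p = 1.19e-09) and lower with it in SAG (-1.41, adjusted p = 1.43e-08), and the effects differed by -3.54 (adjusted p = 8.96e-13). Dlx5, a homeobox gene further along that chromosome, fell with Hoxb1 in SAG (-1.86, adjusted p = 6.34e-21). Adam23, next to Zdbf2, counted 47.1, 49.8 and 54.2 CPM in wild-type and 14.8, 17.9 and 17.6 CPM in null NMPs (log2 fold change -1.58, SE 0.07, adjusted p = 2.24e-13), in the direction of Zdbf2. Klf14, near Mest, was higher in the null, as Mest was (1.15, adjusted p = 0.00115).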

How the data were processed

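RNA was selected with poly-dT beads and made into strand-specific libraries with 15 PCR cycles, per the labels' protocols. The submitters' processing notes name bcl2fastq 1.8.2, featureCounts 1.4.6 and mm10. Aligner, annotation release, strandedness of the counting and treatment of multimapping reads: the sources used here give none of these. The deposited values are raw counts per gene for 18 libraries, and they were used as deposited.

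Genes were filtered with filterByExpr, scaled by trimmed mean of M values (TMM) and tested with edgeR 4.0.16 (quasi-likelihood, robust; R 4.3.3), and p-values were adjusted by Benjamini-Hochberg across the genes tested. The 6 NMP libraries (15032 genes), the 12 NP libraries (16238) and, for NMPs against NPs, all 18 libraries (16761) were fitted apart. CPM values use the scaling of each lineage's own fit. The SE is the log2 fold change divided by the square root of F.

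The rule for named genes gave library values with the log2 fold change, SE and adjusted p where a member was called with a 2-fold change, values for up to 2 others per cluster, and up to 3 genes of each further list per comparison. The members and lists were chosen with earlier results of these data known. On simulated counts for the NMP comparison (15032 genes), 98% of 100 genes changed by 1 and 85% of 100 changed by 0.5 on the log2 scale were recovered. For Hoxb1 in NPs (16238 genes), 97% and 86% were recovered. The simulation gave all genes a single fixed spread, smaller than that estimated for the NMP libraries. It changed only genes with a mean above 1 CPM. These shares therefore do not carry over to scarce members or to a replicate that stands apart.

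Alternatives were DESeq2 1.42.0, RLE and upper-quartile scaling, other count filters, other sets of libraries, a replicate block and leaving out each library. Same-numbered replicates were checked for shared deviations, and in no pair of groups did all 3 correlations pass 0.1 (lowest -0.124, highest 0.378), so the numbers were not taken as pairs.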

Additional observations from a re-analysis of the deposited data

Results flagged for a closer look

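The effect of Hoxb1 on 23 of the 33 measured imprinted genes differed between NPs with and without SAG in edgeR's interaction test, against 35.5% of all tested genes. The difference (log2, with SAG minus without) was below 0 for Peg10 (-1.51), Usp29 (-0.87), Nnat (-0.79), Magel2 (-0.66), Cdkn1c (-0.61), Ndn (-0.55), Nap1l5 (-0.51), Mkrn3 (-0.48), Impact (-0.48), H19 (-0.44), Blcap (-0.33), Zrsr1 (-0.30), Inpp5f (-0.29), Sgce (-0.18) and Snrpn (-0.17). It was above 0 for Igf2 (0.87), Grb10 (0.65), Plagl1 (0.47), H13 (0.38), Mest (0.29), Ppp1r9a (0.23), Igf2r (0.16) and Peg3 (0.14). For Peg10, Usp29, Nnat, Impact and H13 the Hoxb1 effect was called in both media and in opposite directions, though the call of Usp29 without SAG (adjusted p = 0.0308) was lost in 7 settings, among them DESeq2 (0.0902). SAG and the library set cannot be told apart in these differences. Those of Igf2r, Peg3, Sgce and Snrpn passed in some of the settings only, as given with their levels. Beside the difference of Zrsr1 and Grb10, the median of the other genes of chromosome 11 was -0.10.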

How the results depend on the processing

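Among results on imprinted genes called in the main fit or in an alternative run, none changed direction between them. Directions were not compared where neither gave a call. Of 169 calls, 148 held in every setting and 21 were lost in at least 1. Of 61 results that were not called, 19 passed in at least 1 setting. Every count of called members stayed within 1.5 times its value. With single libraries left out, 6 to 9 members were higher and 7 to 10 lower in null NMPs, 10 to 11 and 10 to 12 with Hoxb1 in NPs, 8 and 16 to 18 with Hoxb1 in SAG, 11 to 13 and 12 to 13 with SAG without Hoxb1, 11 to 13 and 14 to 15 with SAG and Hoxb1, and 20 and 9 to 10 from NMPs to NPs. For the difference of the Hoxb1 effects the ranges were 6 to 9 above and 14 to 15 below 0. With the replicate number as a block, the counts were 9 and 9, 12 and 12, 8 and 16, 13 and 13, 12 and 15, 20 and 10, and 8 and 15 in the same order. The block ended 0 of the 169 calls and added 3, of Ascl2, Magel2 and Phlda2. A level of 1 CPM stands for 13 to 27 reads here, which limits Ascl2, Slc22a18 and Airn, and Usp29 and Nap1l5 in NMPs. Results that were not called with all libraries and passed without 1 library were, beside those given above, Blcap with SAG (without NP replicate 2), Ndn (null replicate 3) and Ppp1r9a (null replicate 1) in NMPs, Slc22a18 with SAG and Hoxb1 (NP Hoxb1 SAG replicate 1), Zdbf2 with Hoxb1 (NP replicate 1 or NP Hoxb1 replicate 1) and Zim1 with SAG and in the difference of effects (NP SAG replicate 2).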

Other observations

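Loss of Hoxb1 in NMPs and its induction in NPs share no libraries, so their calls can be set side by side. Of 32 members tested in both, 14 were called in null NMPs and with Hoxb1 in NPs without SAG. The sign of the change was opposite between loss and gain of Hoxb1 for 9 and the same for 5 (35.7%, against 43.3% of 2324 genes over the whole table). Nnat, Mest, Plagl1 and Gnas were among the 9, and H19 was among the 5. With SAG, 13 were called in both, 5 in opposite directions and 8 in the same (61.5%, against 42.2% of 2169 genes).

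The other genes within 1 Mb of a member gave values of their own. Around Peg10, 9 tested neighbours had a median log2 change of 0.33 with Hoxb1 in NPs and of -0.21 with Hoxb1 in SAG, and 5 and 6 of them were called, against 46.2% and 43.4% of all genes. Around Grb10, 7 neighbours had medians of -0.22 and 0.04 in the same comparisons and of 0.86 with SAG in cells with Hoxb1. Around H19, 20 neighbours had medians of 0.22 and 0.11 with Hoxb1, while H19 fell in both.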
